A study of Homo sapiens with 18 samples.

Results

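RUNX family genes were described by the accessibility of their chromatin in Ccd18-Co cells, an established human colon fibroblast line. The family comprised RUNX1, RUNX2, RUNX3 and CBFB, and its members were the ATAC-seq peaks that overlapped the body of one of these genes or the 20 kb on either side of it, in GENCODE release 44 on hg38. This rule took 343 of the 334857 peaks that were counted: 233 at RUNX1, 59 at RUNX2, 35 at RUNX3 and 16 at CBFB. ATAC-seq cuts open chromatin with a transposase, so that the count in a peak follows how accessible that stretch of DNA was. There were 18 libraries in 3 groups of 6. Unstimulated fibroblasts received no cytokines. The other 2 groups were given 3 pulses of a cytokine cocktail of TNF, OSM and IL-17A at 10 ng/ml each with IL-1B at 0.1 ng/ml, each pulse being 72 h in serum-free medium followed by 96 h of recovery in full growth medium. After 1 week of rest these cells received DMSO or belinostat, a histone deacetylase inhibitor, for 5 days in serum-free medium, and nuclei were taken 2 weeks after that treatment ended. The labels give the belinostat dose as 250 nM, whereas the text of the study gives a dose about an order of magnitude higher for its assays, and which of them these libraries received could not be settled. The IL-1B dose above is that of the labels and of a figure legend of the study. The methods of the study give a lower IL-1B dose, and this too could not be settled. The groups are called unstimulated, DMSO and belinostat below. All libraries came from a single cell line, nothing in the labels ties the 6 libraries of a group to separate cultures, and the p-values measure the spread between these libraries only. Whether the unstimulated cells went through the same changes of medium or received DMSO was not given. The cytokines, the handling and the DMSO therefore cannot be told apart.

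RUNX1, RUNX2 and RUNX3 encode transcription factors that bind DNA through a shared Runt domain, and CBFB encodes the partner subunit that does not touch DNA itself but strengthens that binding. RUNX1 is known for the formation of blood stem cells, RUNX2 for bone formation, and RUNX3 for T cells and sensory neurons, while RUNX1 and RUNX2 are also active in connective tissue cells. Each RUNX gene is read from a distal and a proximal promoter, which give proteins with different first residues. The proteins recruit histone deacetylases or acetyltransferases to their targets, so that they repress or activate them.

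RUNX1 spans chr21:34787801-36004667 on the minus strand (ENSG00000159216.19), RUNX2 chr6:45328157-45664349 on the plus strand (ENSG00000124813.23), RUNX3 chr1:24899511-24965121 on the minus strand (ENSG00000020633.19) and CBFB chr16:67028984-67101058 on the plus strand (ENSG00000067955.15). The length of RUNX1, 1216.9 kb, rests on 1 of its 10 coding transcripts. Its MANE Select transcript, the reference choice of NCBI and Ensembl, starts at the distal promoter, at position 35049302, and 151 of the 233 RUNX1 peaks lay further upstream than 20 kb from it. Those 151 peaks are called the upstream stretch and the other 82 the main part. Of all 343 peaks, 293 lay in introns, 10 within 1 kb of a coding start, 6 in exons and 34 in the flanks. Positions below are in kb from the start of the MANE Select transcript to the centre of the peak, positive in the direction of transcription.

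Sequences of promoters and peaks of the family are shown first, as reference sequence of hg38. The promoter windows are those of RefSeq (GRCh38.p14), from 250 bases before a start to 50 after it, and they held 5 promoters of 3 of the 4 genes. The RUNX1 distal promoter and the CBFB promoter were not among them. The distal promoters of RUNX2 and RUNX3 shared a run of 18 bases, shown in capitals, that holds the RUNX core word TGTGGT 2 times on the opposite strand (as ACCACA). Counted from the start, the run began at 15 in RUNX2 and at −133 in RUNX3, and in neither gene did it lie in a peak. Among the other 9 pairs of these 5 promoters, the longest shared run was 8 to 16 bases.
RUNX2 distal promoter, chr6:45328338-45328367, plus strand: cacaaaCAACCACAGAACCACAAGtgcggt
RUNX3 distal promoter, chr1:24965120-24965149, minus strand: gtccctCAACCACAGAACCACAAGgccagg
The RUNX1 proximal promoter carried the strongest peak of the family, and its 250 bases before the start are given with GGAATG, the core word of the TEAD factors, in capitals.
RUNX1 proximal promoter, chr21:34888700-34888949, minus strand: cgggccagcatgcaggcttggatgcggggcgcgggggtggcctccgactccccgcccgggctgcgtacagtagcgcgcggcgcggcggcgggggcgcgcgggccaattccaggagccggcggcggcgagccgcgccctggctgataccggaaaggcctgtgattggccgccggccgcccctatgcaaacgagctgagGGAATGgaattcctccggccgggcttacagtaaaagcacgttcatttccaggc
The next 5 sequences are the centres of peaks whose calls are described below, on the plus strand of hg38. Capitals mark TGTGGT or its complement ACCACA, the AP-1 word TGANTCA, and GGAATG, searched on both strands, and a sequence without capitals holds none of them.
RUNX2 peak at 152.2 kb, chr6:45480464-45480664: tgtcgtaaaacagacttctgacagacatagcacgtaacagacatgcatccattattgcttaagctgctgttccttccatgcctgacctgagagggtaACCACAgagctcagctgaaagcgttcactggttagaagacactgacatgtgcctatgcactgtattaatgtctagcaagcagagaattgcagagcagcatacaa
RUNX2 peak at 329.1 kb, chr6:45657345-45657545: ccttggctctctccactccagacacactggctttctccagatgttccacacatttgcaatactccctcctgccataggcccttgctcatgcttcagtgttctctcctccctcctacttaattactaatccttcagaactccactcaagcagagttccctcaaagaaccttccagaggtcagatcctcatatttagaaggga
RUNX1 peak at −875.7 kb, chr21:35924920-35925120: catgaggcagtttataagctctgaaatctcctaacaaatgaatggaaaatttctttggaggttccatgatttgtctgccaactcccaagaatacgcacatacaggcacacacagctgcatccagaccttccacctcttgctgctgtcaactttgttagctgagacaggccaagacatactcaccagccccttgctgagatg
RUNX1 peak at −883.1 kb, chr21:35932303-35932503: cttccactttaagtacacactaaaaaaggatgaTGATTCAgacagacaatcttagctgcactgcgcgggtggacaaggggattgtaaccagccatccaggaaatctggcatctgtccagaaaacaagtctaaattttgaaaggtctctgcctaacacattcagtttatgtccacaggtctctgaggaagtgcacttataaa
RUNX1 peak at −160.0 kb, chr21:35209202-35209402: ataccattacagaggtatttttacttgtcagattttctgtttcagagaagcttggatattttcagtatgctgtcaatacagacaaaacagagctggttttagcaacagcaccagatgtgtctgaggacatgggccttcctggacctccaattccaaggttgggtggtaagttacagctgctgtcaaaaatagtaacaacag

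The libraries held 4661678 to 11352032 counts in peaks, and the belinostat libraries were the shallowest (4661678 to 6370845). Family peaks took 0.106% to 0.119% of the counts of a library. The 10000 strongest peaks took 35.4% to 39.0% of the counts in unstimulated, 31.8% to 35.2% in DMSO and 28.4% to 34.5% in belinostat libraries, so the contrast between strong and weak peaks differed between the groups. All 9 fibroblast markers examined (COL1A1, PDGFRA, VIM and others) had a peak at their start, with a median of 4.90 log2 CPM per kb and a range of 3.03 to 5.75 (CPM is the count scaled to the effective size of the library). Of the leukocyte markers, PTPRC, SPI1 and MS4A1 had none, and CD3E, CD3D, CD14 and LCP1 lay between 1.44 and 3.13, where CD14 was above the fibroblast marker LUM. Epithelial markers had a median of 2.09, with the keratin gene KRT8 at 4.70, within the fibroblast range, and endothelial markers had a median of 1.58.

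RUNX1, RUNX2 and CBFB each had strong peaks in these fibroblasts, whereas RUNX3 was held by weak peaks only. Summed over the peaks of a locus and divided by their length, unstimulated libraries gave 11.3 ± 0.592 CPM per kb at CBFB (mean ± SD, n = 6), 10.7 ± 0.784 at RUNX2, 8.83 ± 0.618 at RUNX1 and 4.20 ± 0.305 at RUNX3. The libraries of CBFB (10.5 to 12.3) and RUNX2 (10.1 to 12.2) overlapped, those of RUNX1 (8.43 to 9.97) lay below both, and those of RUNX3 (3.83 to 4.71) lay below all others. No RUNX3 peak reached an average of 3 log2 CPM, against 18 at RUNX1, 12 at RUNX2 and 3 at CBFB, and the strongest RUNX3 peak averaged 2.22. The median peak did not follow the order of the loci. Over all libraries it had 3.53 CPM per kb at RUNX1, 4.18 at RUNX3, 4.60 at RUNX2 and 6.09 at CBFB. At RUNX1 85 of 233 peaks averaged under 0 log2 CPM, against 8 of 35 at RUNX3.

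**Figure D1:**
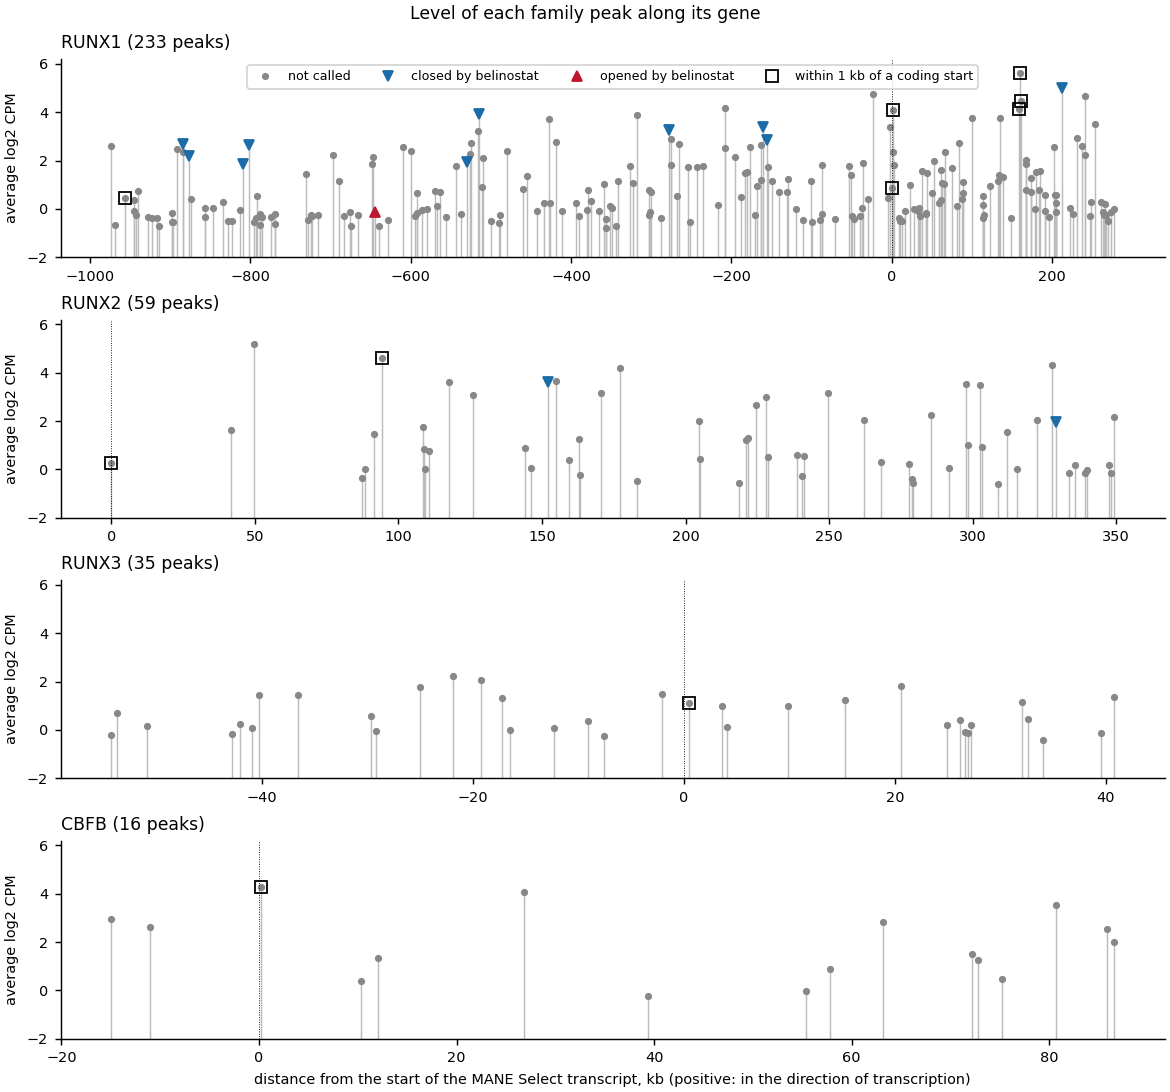
Average log2 CPM over the 18 libraries of every family peak (vertical axis) against its distance in kb from the start of the MANE Select transcript (horizontal axis), with peaks that belinostat closed or opened as triangles and peaks within 1 kb of a coding start as squares. RUNX1 carries 10 of the 12 closed peaks, 9 of them in its upstream stretch, and RUNX2 carries the other 2, while the 35 RUNX3 peaks all stay under 3.

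Accessibility of the promoters differed between the genes. At RUNX1 the proximal promoter carried the strongest peak of the family (chr21:34888546-34889964), with 56.6, 61.4 and 72.0 CPM as the lowest, median and highest unstimulated library. The peak beside its distal promoter (chr21:35047555-35048690) had 18.3, 19.6 and 23.2 CPM, and the peak at the far upstream start of the longest transcript (chr21:36005093-36005448) had 0.478, 0.763 and 1.43. RUNX2 showed the same order, with 26.9, 28.7 and 32.9 CPM at the proximal promoter (chr6:45421445-45423922), the widest peak of the family at 2478 bp. Its distal promoter (chr6:45327948-45328306), which drives the isoform of bone-forming cells, had 0.483, 0.983 and 1.27 CPM. RUNX3 had a weak peak at its proximal promoter (chr1:24929515-24929973; 1.52, 1.78 and 2.71 CPM), and no peak of the table lay within 1 kb of its distal start. CBFB has a single promoter, and its peak (chr16:67028619-67030086) had 18.8, 23.3 and 25.3 CPM. The strongest RUNX2 peak (chr6:45377297-45378610; 39.8, 44.3 and 48.3 CPM) lay in a RUNX2 intron but also at the start of SUPT3H, a subunit gene of the SAGA complex on the opposite strand, and the CBFB peak at 80.7 kb (chr16:67109371-67110403) lay at the start of PHAF1. Counts in these peaks cannot be assigned to either gene.

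The first comparison asked what the earlier cytokine exposure left behind (DMSO against unstimulated). Accessibility of RUNX1, RUNX2 and CBFB was lower in DMSO libraries and that of RUNX3 was higher, with counts summed over each locus. RUNX1 had 9.62, 9.63 and 9.86 log2 CPM in unstimulated libraries (lowest, median, highest) and 9.28, 9.37 and 9.53 in DMSO libraries. RUNX2 had 8.21, 8.26 and 8.49 against 7.86, 7.96 and 8.18, and CBFB had 6.61, 6.71 and 6.83 against 6.26, 6.34 and 6.60. For these 3 genes every DMSO library lay below every unstimulated library. RUNX3 had 5.40, 5.52 and 5.70 in unstimulated and 5.70, 5.82 and 5.87 in DMSO libraries, so the groups met at 5.70. The log2 fold changes were −0.30 ± 0.07 at RUNX1 (± SE, adjusted p = 0.000656), −0.31 ± 0.07 at RUNX2 (adjusted p = 0.000638), −0.33 ± 0.07 at CBFB (adjusted p = 0.000645) and 0.28 ± 0.07 at RUNX3 (adjusted p = 0.000882), all from edgeR's quasi-likelihood test with Benjamini-Hochberg adjustment over 19564 protein-coding loci.

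**Figure D2:**
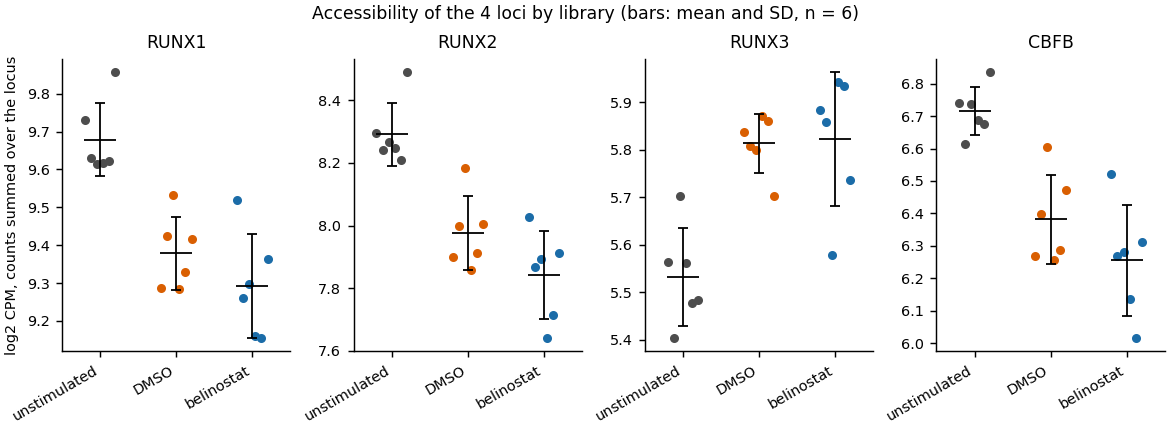
Log2 CPM of the counts summed over each of the 4 loci (vertical axis; each panel has its own range) in each of the 18 libraries, by group, with the mean and SD as bars (n = 6). In RUNX1, RUNX2 and CBFB every DMSO and belinostat library sits below the unstimulated ones. In RUNX3 they sit above the unstimulated ones, apart from DMSO library 6, level with the highest of these at 5.70, and belinostat library 3 at 5.58.

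The fall of RUNX1, RUNX2 and CBFB was close to that of most genes. Of all loci, 67.8% were called lower and 10.5% higher, and the median log2 fold change over all loci was −0.25. The values of RUNX1, RUNX2 and CBFB exceeded those of 33.2%, 27.9% and 22.3% of loci, and that of RUNX3 exceeded those of 89.9%. In each group the library with the highest level of RUNX1, RUNX2 and CBFB (unstimulated 6, DMSO 3 and belinostat 1) was also the library with the largest share of counts in the 10000 strongest peaks (39.0%, 35.2% and 34.5%). Loess offsets fitted to the summed counts remove, in each library, the trend of the log ratio with the level of the locus. With them the median over all loci was −0.01 and these 3 genes were no longer called. RUNX1 had −0.02 (adjusted p = 0.597), RUNX2 −0.02 (adjusted p = 0.571) and CBFB −0.06 (adjusted p = 0.150). RUNX3 stayed higher under these offsets, at 0.52 (adjusted p = 6.4e-05), but they do not remove the trend with peak level. Loess offsets fitted over peaks moved the median of the 35 RUNX3 peaks from 0.46 to 0.31, and the opened ones from 7 to 2. With scaling on the weaker 50% of peaks the median over all loci moved to −0.70 and RUNX3 to −0.17 (adjusted p = 0.254), below 0 but above that median. The library names carry 1 of 4 lane tags, spread unevenly over the groups, and with the tag as a factor RUNX3 was at 0.18 (adjusted p = 0.0565) while the other 3 genes stayed lower.

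RUNX3 was also compared with each other member inside the library, where the scaling between libraries cancels. This comparison was chosen after the values were seen and is given as a description, without a test. The level of RUNX3 less that of RUNX1 was −4.15 ± 0.156 (SD, n = 6) in unstimulated and −3.57 ± 0.140 in DMSO libraries, a rise of 0.58 on the log2 scale. The rise was 0.60 against RUNX2 and 0.61 against CBFB, and in all 3 comparisons every DMSO library lay above every unstimulated library. The 3 comparisons share the RUNX3 values. RUNX3 had no peak that averaged 3 log2 CPM or more, and weak peaks rose against strong ones across the table; how far this contributes to the difference was not tested.

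Peak by peak, the cytokine-exposed libraries opened 19 family peaks (9.51% of all peaks were opened) and closed 52 (9.73% of all peaks were closed), at an adjusted p under 0.05 over all peaks. The family shares were 5.54% opened and 15.2% closed. RUNX1 had 9 opened and 36 closed peaks, RUNX2 had 3 and 11, CBFB had 0 and 5, and RUNX3 had 7 and 0. Without unstimulated library 1 the family count of opened peaks was 9 (6.32% of all peaks were opened). Without unstimulated library 6 the family count of closed peaks was 29 (6.18% of all peaks were closed). With the lane tag as a factor 2 were opened (3.56% of all peaks) and 24 closed (5.29% of all peaks). At an unadjusted p under 0.05, RUNX3 had 12 peaks higher and 1 lower, and CBFB had 0 higher and 7 lower. Of all 334857 peaks, 64846 were higher and 49156 lower at that threshold. The median log2 fold change was −0.10 over the family and 0.13 over all peaks. Without any overlap between the 6 DMSO and the 6 unstimulated libraries, 1 family peak was higher (2.25% of all peaks were) and 17 were lower (3.82% of all peaks were).

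How a peak moved went with how strong it was. Among family peaks that averaged 3 log2 CPM or more, 24 of 33 were closed and none opened, with a median of −0.38; of all 29744 peaks at that level 66.5% were closed and the median was −0.36. Among family peaks under 0, 13 of 107 were opened and none closed (11.9% of all such peaks were opened), with medians of 0.33 and 0.55. The 15 RUNX3 peaks between 0 and 1 had a median of 0.71, where all peaks at that level had 0.24 and the family 0.08. The 8 RUNX3 peaks under 0 had 0.52, where all peaks had 0.55. The 10 between 1 and 2 had 0.17 against −0.14 for all peaks, and the 2 between 2 and 3 had 0.09 against −0.27. With the trend removed by loess offsets, 6 family peaks were opened (1.99% of all peaks) and 12 closed (1.93% of all peaks). Of the 71 calls above, 9 were kept.

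**Figure D3:**
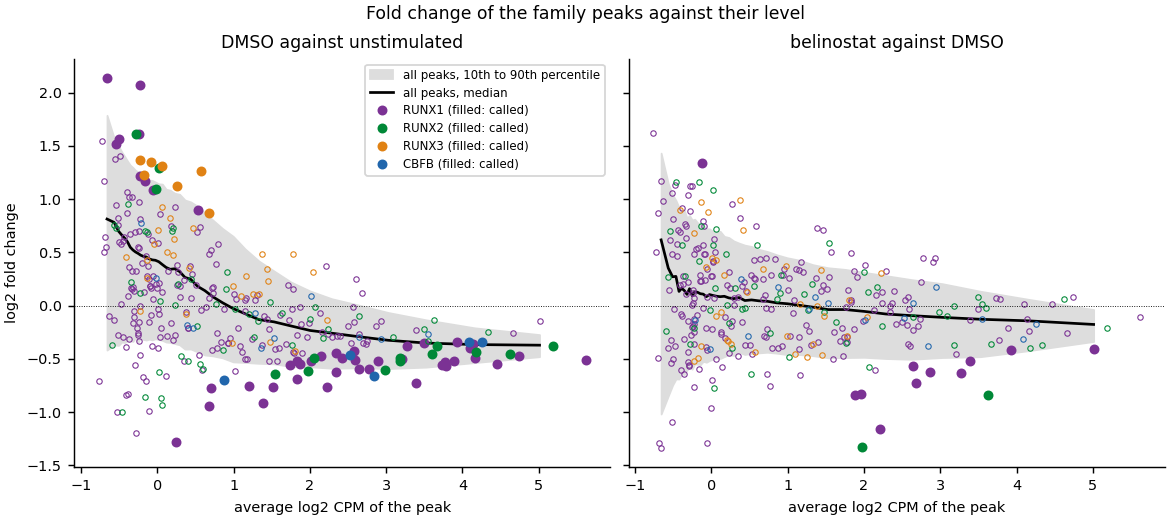
Log2 fold change of each family peak (vertical axis) against its average log2 CPM (horizontal axis) in the cytokine and the belinostat comparison, coloured by gene and filled where called, over the median (black line) and the 10th to 90th percentile (grey) of all peaks at that level. In the cytokine comparison the line falls from weak to strong peaks, the strong family peaks lie below 0, and 29 of the 35 RUNX3 peaks lie above 0. In the belinostat comparison the closed peaks lie at or below the lower edge of the grey band and 1 opened RUNX1 peak lies above it.

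The stronger promoter peaks were among the closed peaks. The RUNX1 proximal promoter went from 56.6, 61.4 and 72.0 CPM in unstimulated to 34.7, 43.6 and 54.2 in DMSO libraries, with no overlap (log2 fold change −0.51 ± 0.11, adjusted p = 0.000302). The peak beside the RUNX1 distal promoter fell by 0.39 ± 0.12 (adjusted p = 0.0115), the RUNX2 proximal promoter by 0.45 ± 0.11 (adjusted p = 0.00231) and the CBFB promoter by 0.34 ± 0.12 (adjusted p = 0.0272), on the log2 scale. The weak promoters were not called: the RUNX2 distal promoter had 0.20 ± 0.34 (adjusted p = 0.703), the far upstream RUNX1 start 0.30 ± 0.33 (adjusted p = 0.541) and the RUNX3 proximal promoter 0.09 ± 0.24 (adjusted p = 0.820). In all, 6 of the 10 promoter peaks were closed and none opened, beside 9.73% of all peaks closed and 66.5% of all peaks that averaged 3 log2 CPM or more. With loess offsets none of the called promoters named here kept its call. That fit left the RUNX1 proximal promoter at −0.11 (adjusted p = 0.241), the RUNX2 proximal promoter at −0.08 (adjusted p = 0.552) and the CBFB promoter at 0.02 (adjusted p = 0.934).

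**Figure D4:**
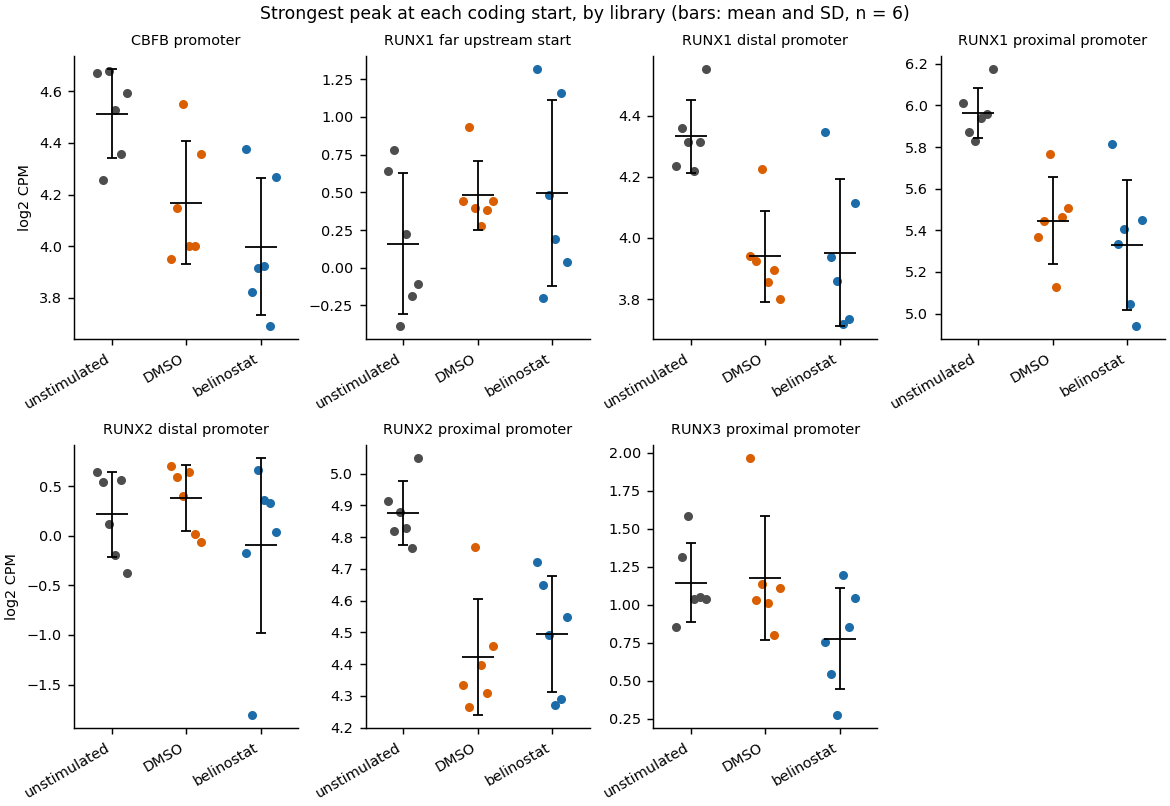
Log2 CPM of the strongest peak at each coding start (vertical axis; each panel has its own range) in each of the 18 libraries, by group, with the mean and SD as bars (n = 6). The RUNX1 proximal and distal, RUNX2 proximal and CBFB promoters were lower in DMSO than in unstimulated libraries, and no promoter was called between belinostat and DMSO.

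Some called peaks lay outside the 10th to 90th percentile of all peaks at their level. The RUNX1 intron peak at −160.0 kb (chr21:35208959-35209646), shown above, had 11.4, 14.2 and 19.8 CPM in unstimulated and 8.09, 9.40 and 9.88 in DMSO libraries, which did not overlap, and fell by 0.73 ± 0.13 (adjusted p = 3.7e-05). The RUNX1 intron peak at 240.4 kb (chr21:34808683-34809155) fell by 0.76 ± 0.17 (adjusted p = 0.000683). Of the opened peaks, the RUNX1 intron peak at 42.4 kb (chr21:35006801-35007039) had 0, 0.163 and 0.319 CPM in unstimulated and 0.271, 0.842 and 1.20 in DMSO libraries, which overlapped, and rose by 2.08 ± 0.53 on the log2 scale (adjusted p = 0.00209). These 3 peaks kept their call and direction in every alternative fit that gave them a value.

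The opened RUNX3 peaks lay in introns and upstream of its distal start, and their number changed with the fit. Of the 7 peaks, 4 lay in the 20 kb upstream of the gene and 3 in introns. The count was 12 with library totals, 2 with loess offsets, 2 in DESeq2, 1 with scaling on the weaker 50% of peaks and 0 with the lane tag as a factor. The share of all peaks opened in these fits was 16.21%, 1.99%, 4.54%, 2.24% and 3.56%, in that order. The RUNX3 count was 3 without unstimulated library 1 and 4 without unstimulated library 6, DMSO library 4 or DMSO library 5. The upstream peak at −42.1 kb (chr1:24972195-24972468) had 0.159, 0.616 and 0.762 CPM in unstimulated and 0.803, 1.319 and 1.502 in DMSO libraries, and it was the 1 family peak whose DMSO libraries all lay above the unstimulated ones (1.13 ± 0.36, adjusted p = 0.0159). All 7 were weak, with no unstimulated or DMSO library above 2.19 CPM. Without the flanks, the sum over the RUNX3 body was 0.16 ± 0.08 higher on the log2 scale and not called (adjusted p = 0.0638). The strongest RUNX3 peak (−21.9 kb, chr1:24951714-24952588) had 3.12, 4.40 and 4.99 CPM in unstimulated and 3.06, 4.20 and 4.55 in DMSO libraries and was not called (−0.13 ± 0.17, adjusted p = 0.616).

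The second comparison asked what belinostat changed in cytokine-exposed fibroblasts (belinostat against DMSO). It shares the DMSO libraries with the first comparison, so the values of the 2 comparisons are not independent. No locus of the family was called. The log2 fold changes were −0.08 ± 0.07 at RUNX1 (adjusted p = 0.439), −0.13 ± 0.07 at RUNX2 (adjusted p = 0.246), 0.02 ± 0.07 at RUNX3 (adjusted p = 0.903) and −0.13 ± 0.08 at CBFB (adjusted p = 0.301), and the 2 groups overlapped at all 4 loci. Over all loci 2.35% were lower and 0.153% higher, with a median of −0.08. Without belinostat library 1, 28.15% of all loci were lower and RUNX2 (−0.17, adjusted p = 0.0492) and CBFB (−0.18, adjusted p = 0.0456) passed the threshold. Inside the library, RUNX3 less RUNX1 differed by 0.095 between the groups, which overlapped.

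Single peaks were called. Belinostat closed 12 family peaks (1.75% of all peaks were closed) and opened 1 (0.607% of all peaks were opened), which is 3.50% and 0.292% of the family. All 12 closed peaks lay in introns and none at a promoter: 9 in the upstream stretch of RUNX1, 1 in its main part and 2 in RUNX2. RUNX3 and CBFB had no called peak. At an unadjusted p under 0.05 in edgeR, 4 RUNX3 peaks were higher and 2 lower, and 2 CBFB peaks were lower. Of all 334857 peaks, 27502 were higher and 25729 lower at that threshold. No family peak was higher without overlap of the libraries (0.467% of all peaks were) and 6 were lower (1.04% of all peaks were). Without DMSO library 2 the family count of closed peaks was 6 (1.16% of all peaks). It was 7 without belinostat library 5 (1.27% of all peaks) and 5 with the lane tag as a factor (0.69% of all peaks). The closed peaks fell by 0.41 to 1.324 on the log2 scale, and their average levels were 1.88 to 5.01 log2 CPM. Among all peaks of 3 log2 CPM or more, 9.81% were closed, and 5 of the 33 family peaks were.

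At RUNX2 the intron peak at 152.2 kb (chr6:45480152-45480977) had 8.60, 14.3 and 16.7 CPM in DMSO and 6.10, 7.88 and 8.30 in belinostat libraries. It fell by 0.83 ± 0.14 (adjusted p = 8.1e-06), every belinostat library lay below every DMSO library, and the unstimulated libraries had 11.8, 15.0 and 18.0. The RUNX2 intron peak at 329.1 kb (chr6:45657284-45657607), close to a stronger peak, had 4.51, 5.24 and 8.86 CPM in unstimulated, 2.02, 4.03 and 4.60 in DMSO and 0.781, 1.48 and 1.85 in belinostat libraries. It fell by 1.324 ± 0.24 (adjusted p = 3.0e-05), again without overlap between belinostat and DMSO. Its neighbour at 327.8 kb (chr6:45655783-45656433) had 17.5, 18.9 and 26.2 CPM in DMSO and 11.6, 15.9 and 18.5 in belinostat libraries and was not called (−0.37 ± 0.12, adjusted p = 0.0862).

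At RUNX1 the closed peak with the smallest p lay at −875.7 kb (chr21:35924682-35925359). It had 3.86, 4.33 and 5.26 CPM in unstimulated, 2.62, 4.55 and 9.81 in DMSO and 2.15, 2.41 and 3.58 in belinostat libraries, and fell by 1.15 ± 0.20 (adjusted p = 1.7e-05). The DMSO libraries spread widely there and overlapped the belinostat ones. The next peak upstream, at −883.1 kb (chr21:35932016-35932790), had 5.54, 7.00 and 9.14 CPM in DMSO and 3.32, 4.21 and 6.62 in belinostat libraries and fell by 0.72 ± 0.17 (adjusted p = 0.0028). The peak at −277.5 kb (chr21:35326439-35327156) went from 7.51, 9.53 and 11.6 CPM to 4.88, 6.27 and 6.67 without overlap and fell by 0.63 ± 0.15 (adjusted p = 0.00378). The peak at −529.2 kb went from 2.66, 3.82 and 5.42 CPM to 1.66, 2.22 and 2.61, also without overlap (−0.83 ± 0.21, adjusted p = 0.00943). In the main part, the strong intron peak at 212.8 kb (chr21:34836050-34836901) went from 27.4, 34.3 and 36.3 CPM in DMSO to 21.7, 24.9 and 29.3 in belinostat libraries (−0.41 ± 0.11, adjusted p = 0.0201), with overlap.

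**Figure D5:**
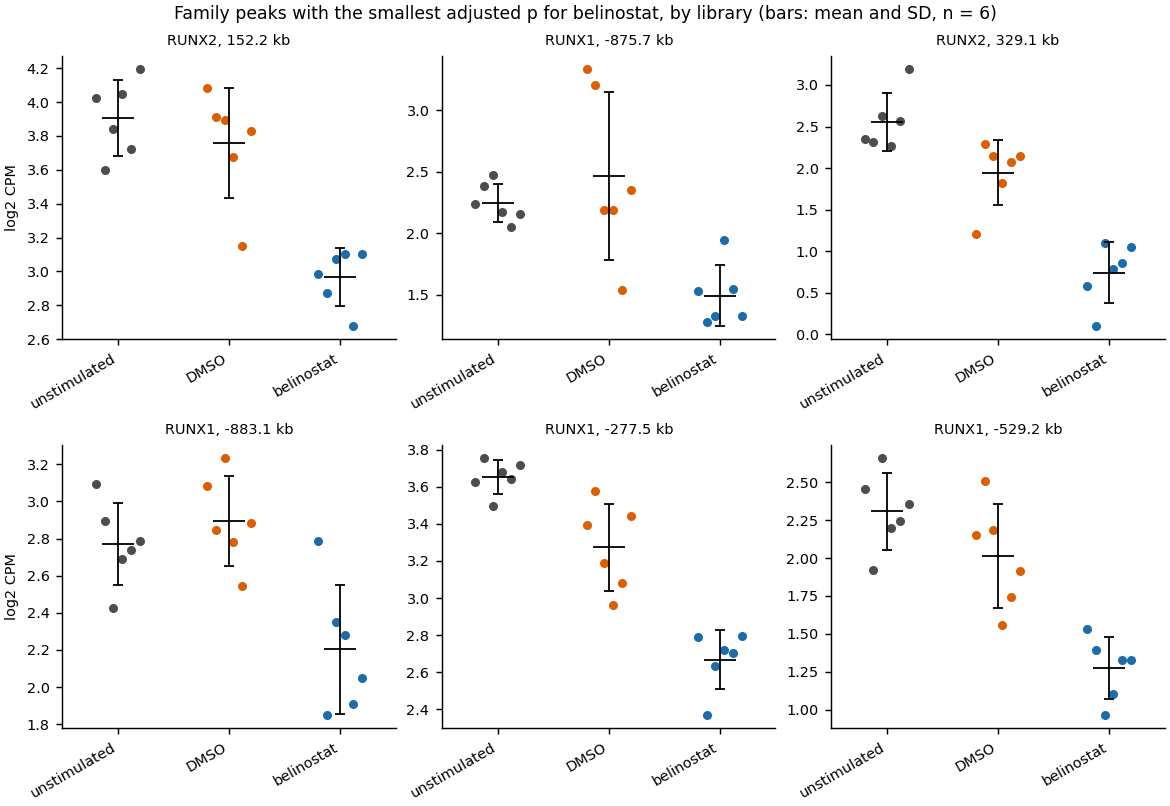
Log2 CPM (vertical axis; each panel has its own range) of the 6 family peaks with the smallest adjusted p among those closed by belinostat, in each of the 18 libraries by group, with the mean and SD as bars (n = 6). Both RUNX2 peaks and the RUNX1 peaks at −277.5 and −529.2 kb show belinostat libraries entirely below DMSO libraries, while at −875.7 and −883.1 kb the groups overlap.

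The 27 alternative fits of a peak were 18 with 1 library left out, 6 of them without an unstimulated library, and 9 with another setting. Unstimulated libraries enter this comparison only through the shared spread and the scaling. Of the belinostat calls, the 2 RUNX2 peaks and the RUNX1 peaks at −875.7 and −883.1 kb held in all 27 alternative fits. The peak at −277.5 kb lost its call in 1, with scaling on the weaker 50% of peaks (adjusted p = 0.0544), and that at −529.2 kb in 2, without DMSO library 2 (adjusted p = 0.0786) and with the lane tag as a factor (adjusted p = 0.309). The weaker calls did not hold throughout: the RUNX1 peak at −160.0 kb (−0.52 ± 0.15, adjusted p = 0.0394) passed in 12 of 27 alternative fits, and the peak at −514.8 kb (−0.42 ± 0.13, adjusted p = 0.0496) in 8 of 27. The single opened peak (RUNX1, −643.8 kb, chr21:35692981-35693285) had 0.292, 0.375 and 0.812 CPM in DMSO and 0.185, 1.03 and 2.43 in belinostat libraries, with wide overlap (1.34 ± 0.41, adjusted p = 0.0439), and passed in 14 of 25. Loess offsets opened 5 family peaks (0.95% of all peaks) and closed 8 (1.51% of all peaks), and 8 of the 13 calls were kept.

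No promoter of the family was called between belinostat and DMSO. The log2 fold changes were −0.11 ± 0.11 at the RUNX1 proximal promoter (adjusted p = 0.648), 0.02 ± 0.12 beside the RUNX1 distal promoter (adjusted p = 0.961), 0.07 ± 0.11 at the RUNX2 proximal promoter (adjusted p = 0.802) and −0.17 ± 0.12 at the CBFB promoter (adjusted p = 0.493). The weak promoters had −0.40 ± 0.37 at the RUNX2 distal (adjusted p = 0.594) and −0.45 ± 0.26 at the RUNX3 proximal promoter (adjusted p = 0.382). The weak promoters held 0 to 3.63 CPM in a library.

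The third comparison set belinostat-treated against unstimulated libraries and asked how far cytokine-exposed cells still differed after the drug. The loci kept the directions of the first comparison: RUNX1 −0.38 ± 0.07 (adjusted p = 1.6e-05), RUNX2 −0.45 ± 0.07 (adjusted p = 5.1e-06), CBFB −0.46 ± 0.07 (adjusted p = 7.8e-06) and RUNX3 0.30 ± 0.07 (adjusted p = 0.000268), where 71.6% of all loci were lower and 11.8% higher and the median was −0.33. With loess offsets RUNX1 turned to 0.04 (adjusted p = 0.194) and RUNX2 and CBFB lost their calls (−0.01 and −0.08). Of the family peaks 35 were opened (16.8% of all peaks) and 65 closed (13.7% of all peaks), and by gene the counts were 16 and 46 at RUNX1, 7 and 14 at RUNX2, 12 and 0 at RUNX3 and 0 and 5 at CBFB. Without overlap of the libraries 7 were higher (2.58% of all peaks) and 35 lower (6.16% of all peaks). The third comparison shares libraries with both others. Loess offsets opened 9 family peaks (3.79% of all peaks) and closed 31 (4.95% of all peaks), and 26 of the 100 calls were kept.

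In all 3 comparisons 4 family peaks were closed, and how many of all peaks were closed in all 3 was not counted. The third fold change is nearly the sum of the other 2 on the log2 scale. A peak closed in both is therefore likely to be closed in the third as well. The 4 included the RUNX2 peak at 329.1 kb and the RUNX1 peaks at −160.0 and −277.5 kb. The cytokine call at 329.1 kb held in 22 of 27 alternative fits and that at −277.5 kb in 18 of 27. With loess offsets the cytokine values there were −0.42 (adjusted p = 0.126) and −0.07 (adjusted p = 0.759). The RUNX2 peak at 329.1 kb fell by 1.94 ± 0.22 on the log2 scale between unstimulated and belinostat libraries (adjusted p = 1.9e-13). The RUNX1 peak at −160.0 kb had 4.62, 5.60 and 11.0 CPM in belinostat libraries, all below the unstimulated ones (−1.25 ± 0.15, adjusted p = 1.0e-12), and the RUNX1 peak at −277.5 kb changed by −1.01 ± 0.14 (adjusted p = 3.5e-09). At CBFB the intron peak at 63.2 kb (chr16:67091968-67092823) had 8.44, 9.36 and 11.0 CPM in unstimulated, 4.57, 6.16 and 7.00 in DMSO and 2.36, 5.03 and 6.84 in belinostat libraries, with no overlap between unstimulated and either treated group (−1.04 ± 0.16, adjusted p = 7.1e-08). It was not called between belinostat and DMSO (−0.38 ± 0.17, adjusted p = 0.252). On the opened side, the RUNX3 intron peak at 26.6 kb (chr1:24903594-24903753) had 0, 0.276 and 0.649 CPM in unstimulated and 0.740, 0.873 and 1.53 in belinostat libraries without overlap (1.71 ± 0.47, adjusted p = 0.00199), and the RUNX3 peak at −12.3 kb had 0.254, 0.320 and 0.392 against 0.195, 1.29 and 1.72 with overlap (1.73 ± 0.44, adjusted p = 0.000867).

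Genes that act with the RUNX proteins were read from the same fit over loci. The lists held 64 genes and all were tested. After cytokines, 17 of 20 corepressors and coactivators, 13 of 16 partner factors and signal mediators, 11 of 12 modifying or degrading enzymes and 10 of 16 target genes were lower, against 67.8% of all loci. Among them were RUNX1T1, a corepressor of the ETO family (−0.50 ± 0.08, adjusted p = 0.000173), the cartilage collagen gene COL10A1 (−0.42 ± 0.08, adjusted p = 0.000352) and TWIST1, a mesenchymal factor that binds RUNX2 (−0.40 ± 0.10, adjusted p = 0.00113). The median over the 64 genes was −0.28 and over all loci −0.25. In all, 51 were lower and 2 higher (10.5% of all loci were higher). With loess offsets these counts turned to 5 lower (12.23% of all loci) and 8 higher (15.87% of all loci). With library totals they turned to 18 lower (20.9% of all loci) and 8 higher (19.82% of all loci). The 2 loci called higher were both target genes: TNFSF11, which encodes the osteoclast signal RANKL (0.31 ± 0.09, adjusted p = 0.00418), and the gelatinase gene MMP9 (0.30 ± 0.10, adjusted p = 0.00704). After belinostat, none of the 64 was higher (0.153% of all loci were) and 2 were lower (2.35% of all loci were), the collagenase gene MMP13 (−0.39 ± 0.10, adjusted p = 0.0362) and ETS1, whose product binds DNA together with RUNX1 (−0.26 ± 0.07, adjusted p = 0.0468), with a median of −0.13 against −0.08. The count of lower genes was 31 without belinostat library 1, 9 with the replicate number as a block and 6 in DESeq2. Of all loci, 28.15%, 6.84% and 4.17% were lower in these fits, in that order. The count was 0 in a fit of the belinostat and DMSO libraries alone, with the lane tag as a factor and with scaling on the weaker 50% of peaks. It was also 0 without any single one of DMSO libraries 2, 3 and 6, belinostat libraries 2 to 5 and unstimulated library 2. In these fits at most 1.19% of all loci were lower. In the third comparison 56 were lower (71.6% of all loci were) and 2 higher (11.8% of all loci were), MMP9 (0.43 ± 0.10, adjusted p = 0.000307) and the osteocalcin gene BGLAP (0.19 ± 0.08, adjusted p = 0.0328). Loess offsets gave 13 lower (21.74% of all loci) and 10 higher (22.58% of all loci) there. Library totals gave 35 lower (30.99% of all loci) and 6 higher (26.82% of all loci).

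The centre of each peak, a window of the length shown above, was searched for short words on both strands, as a description without a test. TGTGGT was in 14.9% of family peaks and in 16.5% of all peaks, and by gene in 28.8% of RUNX2, 18.8% of CBFB, 14.3% of RUNX3 and 11.2% of RUNX1 peaks. The variant TGCGGT was in 1.75% of family and 2.89% of all peaks. The AP-1 word TGANTCA was in 25.4% of family and 14.2% of all peaks, and GGAATG in 16.3% and 15.6%. Of the 12 peaks closed by belinostat, 4 held TGANTCA and 1, the RUNX2 peak at 152.2 kb, held TGTGGT. The RefSeq window of the RUNX2 distal promoter held TGTGGT 4 times and that of RUNX3 2 times, while those of the 3 proximal promoters held none; of all 35116 RefSeq promoters of this length 13.1% held the word. The median GC content was 46.3% over family peaks, 56.2% over RUNX3 peaks and 50.25% over all peaks.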

How the data were processed

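Bulk ATAC-seq libraries of Ccd18-Co fibroblasts were analysed from the table of counts per peak that the authors deposited, whole-number counts that were not normalized. The authors ran the ENCODE pipeline for ATAC-seq on hg38, called peaks with MACS2, merged them into consensus peaks and counted fragments in them with csaw, leaving out blacklisted regions; per the labels, peaks were annotated with ChIPseeker 1.34.1.

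Here all 334857 peaks were fitted in edgeR 4.0.16 (R 4.3.3, limma 3.58.1) by its quasi-likelihood test, with TMM factors, 1 mean per group and all 18 libraries. A peak or locus was called at an adjusted p (Benjamini-Hochberg) under 0.05. The filter, an average of −3 log2 CPM, removed 0 peaks. Log2 CPM used a prior count of 2, and printed CPM none. Counts were also summed per protein-coding gene over the peaks overlapping its body or the 20 kb on either side (19564 loci, a peak counting for each gene it touched). Sequences of peaks were read from hg38, and promoters from RefSeq (GRCh38.p14). All 4 members were named, with the strongest peak at each promoter, the 3 strongest peaks of each member, the peak with the smallest p per member and comparison, and the 5 opened and 5 closed with the smallest adjusted p per comparison. Among listed pathway genes the 3 largest rises and falls called per comparison were eligible. The other peaks given by position were chosen after their values were seen. Of the items this names, 1 RUNX3 peak and 1 leukocyte marker are not reported here. The members and lists were chosen with earlier results of these data known. No sample column was left unused. The fit was tested on simulated data for the cytokine comparison: among 30000 peaks it recovered 41% of 2-fold and 12% of 1.5-fold changes, and among 19564 loci 97% of both. Only 100 peaks and 100 loci were changed at each fold, with no shift of strong against weak peaks. These shares therefore do not give the share recovered in the data. DESeq2 1.42.0, other scalings, filters, gene windows and left-out libraries were alternatives. Replicate numbers did not pair the libraries.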

Additional observations from a re-analysis of the deposited data

Results flagged for a closer look

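The highest or lowest library stood far from the other 5 of its group in 12 of 123 tests of the named loci and peaks (its gap to the nearest library, as a share of the group's range, was above Dixon's 95% critical value), where chance gives about 1 in 20. All values are log2 CPM. Over the RUNX2 locus, unstimulated library 6 had 8.49, the others 8.21 to 8.30, and it was also high at the RUNX2 peak at 327.8 kb with 4.87 (others 4.48 to 4.58). DMSO library 2 stood apart at 2 peaks: RUNX1 42.4 kb with −0.85 (others 0.13 to 0.58) and RUNX1 −956.0 kb with 0.93 (others 0.27 to 0.44). Other DMSO libraries did so at RUNX1 212.8 kb (library 5, 4.79, others 5.07 to 5.19), RUNX1 1.2 kb (library 3, 4.23, others 3.80 to 3.94) and RUNX3 0.5 kb (library 1, 1.97, others 0.80 to 1.14). Belinostat libraries did so at RUNX2 −0.2 kb (library 2, −1.81, others −0.17 to 0.66), RUNX2 315.6 kb (library 1, −1.04, others 0.34 to 0.89) and RUNX3 26.6 kb (library 5, 0.86, others 0.04 to 0.34). Unstimulated libraries did so at RUNX3 −9.1 kb (library 4, −0.79, others 0.09 to 0.49) and RUNX3 −19.2 kb (library 2, 1.46, others 1.88 to 2.03).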

How the results depend on the processing

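The peak counts depended on the scaling. In the cytokine comparison 19 opened and 52 closed family peaks became 32 and 19 with library totals, 5 and 137 with TMM over the weaker 50% of peaks, 6 and 12 with loess offsets, 6 and 25 in DESeq2, and 2 and 24 with the lane tag as a factor, an alternative chosen after seeing the data; 7 were opened among peaks averaging over 0 log2 CPM. Of all peaks, 16.21% were opened and 3.25% closed with library totals, and 2.24% and 25.15% for TMM over weaker peaks. The shares were 1.99% and 1.93% with loess offsets, 4.54% and 5.55% in DESeq2, and 3.56% and 5.29% with the lane tag. Among all peaks averaging over 0, 8.7% were opened. The median over all peaks was 0.13 in the fit as reported, 0.34 with library totals, −0.30 for TMM over weaker peaks and 0.01 with loess offsets. With 1 library left out, opened peaks ranged from 9 to 20 (12 without DMSO 1, 10 without DMSO 4, 9 without unstimulated 1, 12 without unstimulated 6) and closed peaks from 29 to 59 (29 without unstimulated 6). In the belinostat comparison the 1 opened peak became 5 under library totals or loess offsets and 0 under weaker-peak TMM or DESeq2, and the left-out libraries gave 0 to 2 (0 without DMSO 1, 3 or 4 or belinostat 5 or 6; 2 without DMSO 6 or belinostat 4). The 12 closed peaks became 6 with the weaker peaks and 5 with the lane tag, and 6 to 15 with 1 library left out (6 without DMSO 2, 7 without belinostat 5). Of all peaks, 1.1% were opened and 1.46% closed with library totals, and 0.95% and 1.51% with loess offsets. The shares were 0.1% and 1.01% with the weaker peaks, 0.32% and 1.71% in DESeq2, and 0.24% and 0.69% with the lane tag. In the third comparison 35 opened and 65 closed peaks became 69 and 29 with library totals, 5 and 161 under TMM over weaker peaks and 9 and 31 with loess offsets; 16 were opened among peaks over 0. Left-out libraries gave 21 to 42 (23 without belinostat 4, 21 without belinostat 5) and 58 to 70. Of all peaks, 30.43% were opened and 6.31% closed with library totals. The shares were 2.64% and 30.87% for TMM over weaker peaks and 3.79% and 4.95% with loess offsets. Among all peaks over 0, 12.64% were opened.

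Of the loci in the cytokine comparison, loess offsets gave RUNX1 −0.016, RUNX2 −0.019 and CBFB −0.060, none called. RUNX3 was −0.17 with the weaker peaks, 0.16 over the gene body alone and with 3 kb upstream, and 0.18 with the lane tag, none called. In the belinostat comparison, where no locus was called, RUNX1 was 0.0016 with library totals and 0.051 with loess offsets, RUNX2 0.0061 with loess offsets, and RUNX3 −0.11 with the weaker peaks, −0.027 with 3 kb upstream, −0.0095 without belinostat 4 and −0.0079 without belinostat 5. Left-out libraries gave RUNX2 −0.17 to −0.081, CBFB −0.18 to −0.072 and RUNX3 −0.0095 to 0.059; RUNX2 and CBFB passed only without belinostat 1. In the third comparison loess offsets gave RUNX1 0.035, RUNX2 −0.013 and CBFB −0.076, and RUNX3 was −0.28 with the weaker peaks, 0.16 over the body and 0.13 with 3 kb upstream. The causes of these changes were not tested.

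Loess offsets turned these named peaks above 0 in the cytokine comparison: RUNX2 49.6 kb (0.019), CBFB 0.2 kb (0.015) and CBFB 26.8 kb (0.011). In the third comparison they did so for RUNX1 212.8 kb (0.033), 161.1 kb (0.019), 1.2 kb (0.13) and −23.9 kb (0.16), RUNX2 49.6 kb (0.0023) and 94.4 kb (0.17), and CBFB 0.2 kb (0.011) and 80.7 kb (0.076).

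With the replicate number as a block, the count of peaks opened by belinostat went from 1 to 0 (RUNX1 −643.8 kb). No other peak call followed through the alternative fits was lost, and no call on a family locus changed. Peaks not called in the fit as reported were not followed. With this block 20 family peaks were opened and 52 closed in the cytokine comparison (9.66% and 10.31% of all peaks). The counts were 0 and 13 in the belinostat comparison (0.57% and 1.86%) and 36 and 66 in the third (16.17% and 13.84%). Of 18 correlations between same-numbered libraries, from −0.13 to 0.11, 1 exceeded 0.1, and in 4 a library correlated best with its own number, so the numbers do not pair the libraries. Weak peaks rest on few counts, and 1.5-fold changes at peaks were mostly missed in simulated data.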

Other observations

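Neighbouring peaks of the RUNX1 upstream stretch moved differently. About 2 kb from the peak at −277.5 kb that belinostat closed, the RUNX1 peak at −275.5 kb (chr21:35324491-35325179) had 7.16, 7.48 and 10.2 CPM in unstimulated, 3.76, 5.66 and 7.05 in DMSO and 5.27, 6.87 and 11.8 in belinostat libraries. It was closed after cytokines without overlap (−0.52 ± 0.15, adjusted p = 0.0107 in edgeR) and was not called after belinostat (0.41 ± 0.16, adjusted p = 0.160). With loess offsets it was opened by belinostat (0.52 ± 0.14, adjusted p = 0.0197), while its neighbour stayed closed (−0.49 ± 0.13, adjusted p = 0.0117). The pair was chosen after its values were seen, and the difference between the neighbours was not tested.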
